A study of Mus musculus with 2 samples.

Results

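miR-221 and miR-222 are microRNAs (miRNAs), short RNAs that guide Argonaute proteins to matching sites in mRNAs, and they are encoded side by side on the mouse X chromosome. They were followed in exosomes, small membrane vesicles shed into the culture medium, through 3 entries of the deposited small RNA table: mmu-miR-221-3p, mmu-miR-221-5p and mmu-miR-222-3p. These were taken by name from 1214 miRNA entries, in a table of 1374 small RNA entries in all. Exosomes came from mesenchymal stem cells (MSCs, the stromal precursors of bone, fat and cartilage) of the C57BL/6 mouse strain and, as the control, from NIH 3T3 cells, 1 established mouse fibroblast line of NIH Swiss origin. Both cell types were kept for 72 hours in αMEM with 5% fetal bovine serum, and neither carried a named allele or received a drug. The tissue the MSCs came from, their passage and the number of animals were not given in the sources used here. With 1 library a group there was nothing to test against, no difference has a replicate check, and values in brackets are 95% intervals that cover counting error only.

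The paired genes arise from a shared primary transcript, from which each hairpin is cut and its 5p and 3p arms released. One arm is usually kept by Argonaute and the other lost. The 3p arms of miR-221 and miR-222 share a seed, the bases that choose target mRNAs, and are known to repress the CDK inhibitors Cdkn1b and Cdkn1c and the stem cell factor receptor Kit. In vascular smooth muscle they favour proliferation, in endothelial cells they restrain vessel growth through Kit, and they are abundant in many fibroblast and stromal cells.

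The mature sequences are shown because the seed sets the shared and the separate members apart. They are RefSeq sequences (GRCm38.p6), 5′ to 3′, with the seed, bases 2 to 8, in capitals.
miR-221-3p: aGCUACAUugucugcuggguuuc
miR-222-3p: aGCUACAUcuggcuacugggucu
miR-221-5p: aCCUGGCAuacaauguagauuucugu
The 3p arms were identical over the first 8 bases and differed at 12 of 23 positions when laid base against base from the 5′ end. No other of the 1679 RefSeq mature names came closer than 9 differing bases to either 3p arm, or 8 to miR-221-5p, compared in the same way without shifts, so a read of full length separates the members. The seed GCUACAU belongs to 3 mature mouse names, of which miR-1928 had no entry under that name among the miRNA entries.

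On the minus strand of the X chromosome, miR-221-3p lay at chrX:19146307-19146329, miR-221-5p at chrX:19146344-19146369 and miR-222-3p at chrX:19146903-19146923 in mm10. The table gave miR-222-3p 21 bases, which are the first 21 of the 23 in RefSeq. The hairpins are printed to show how the arms sit in them, with the arms that RefSeq annotates in capitals.
Mir221, chrX:19146294-19146388: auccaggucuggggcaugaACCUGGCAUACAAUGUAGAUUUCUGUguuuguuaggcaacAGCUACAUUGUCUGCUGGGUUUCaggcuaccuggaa
Mir222, chrX:19146893-19146971: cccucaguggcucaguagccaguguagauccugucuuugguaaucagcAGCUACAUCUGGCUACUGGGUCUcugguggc
The hairpins were 504 bases apart and together spanned 678 bases. In GENCODE M21 no gene other than Mir221 and Mir222 overlapped this span, and the nearest protein-coding genes were 4930578C19Rik at 685 kb and Tex13c3 at 332 kb.

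Known target mRNAs show what the shared seed reads. The complement of the seed, ATGTAGC, was searched on the mRNA strand in the longest annotated 3′ untranslated region of each gene in GENCODE M21. It was present in 9.42% of all 20979 genes, whose median region was 954 bases long. Reported targets are often genes first picked for such a match, so their sites are shown as a description. Sites are given 5′ to 3′ with that match in capitals, in GRCm38 coordinates.
Cdkn1b, chr6:134924417-134924438, plus strand: tctaaaagcattggATGTAGCa
Cdkn1c, chr7:143458925-143458946, minus strand: gggacctttcgttcATGTAGCa
Kit, chr5:75654978-75654999, plus strand: atgatgggagatatATGTAGCa
Kit, chr5:75656509-75656530, plus strand: ttgtaaatattgaaATGTAGCa
Bbc3, chr7:16317317-16317338, plus strand: actttttctgcaccATGTAGCa
Bbc3 encodes the cell death factor Puma. Timp3, a metalloproteinase inhibitor, and Bmf, another cell death factor, had 1 match each, and the transcription factor Ets1 had 2. The transcription factor Foxo3 had 0, although 29.9% of untranslated regions within 1.2 times its length held the match. Among regions about as long as that of Cdkn1b (3439 bases) the share was 22.7%, and among those about as long as that of Cdkn1c (688 bases) it was 4.87%. For lengths like those of Kit, Timp3, Bbc3, Bmf and Ets1 it was 15.5%, 24.3%, 6.13%, 26.4% and 22.3%. No mRNA was measured in these samples.

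The raw counts of all miRNA entries came to 1028186 for MSC and 431007 for NIH3T3 exosomes, 41.1% and 41.6% of all counts in the table. CPM below is counts for every 1000000 miRNA counts, and 1 count was worth 0.973 CPM for MSC and 2.32 CPM for NIH3T3 exosomes. The 5 entries of a miRNA set that marks mesenchymal cells summed to 238315 CPM in MSC and 175800 CPM in NIH3T3 exosomes. Most of each sum was 1 entry that merges miR-199a-3p and miR-199b-3p, at 167562 and 154264 CPM. The least abundant, miR-214-3p, had 805 and 566 CPM. On the scale of the deposited normalized values miR-143-3p and miR-145a-5p were more than 2-fold higher for MSC. The other 3 entries differed by less than 2-fold on that scale. Of these, miR-199a-5p had a log2 ratio of 0.93 there, but its 14679 and 6552 CPM were more than 2-fold apart.

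miR-221-3p, the main arm of its hairpin, was among the most abundant miRNAs of both libraries. It had 43200 counts in MSC exosomes, 42016 CPM or 4.20% of miRNA counts (4.16 to 4.24), and 20046 counts in NIH3T3 exosomes, 46510 CPM or 4.65% (4.59 to 4.71). By count it ranked 5 among MSC and 4 among NIH3T3 miRNAs. miR-222-3p, its seed partner, had 2003 counts in MSC exosomes, 1948 CPM or 0.195% (0.186 to 0.204), and 402 counts in NIH3T3 exosomes, 933 CPM or 0.0933% (0.0846 to 0.103). It ranked 64 and 81. The share of miR-221-3p was thus slightly higher in the NIH3T3 library and that of miR-222-3p was higher in the MSC library, and in neither case did the counting intervals overlap. Counts are shares of a library, so more copies of a miRNA and fewer of the others cannot be told apart.

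miR-221-5p, the arm that is mostly discarded, was rare. It had 38 counts in MSC exosomes, 37.0 CPM (26.9 to 50.7), and 5 counts in NIH3T3 exosomes, 11.6 CPM (4.96 to 27.2), with intervals that just touched. The table also held the remaining arm of the pair, miR-222-5p, which was looked at after its values were seen and is no member. It had 65 counts, 63.2 CPM, in MSC exosomes and 24 counts, 55.7 CPM, in NIH3T3 exosomes. Mature miRNAs are of nearly equal length, and no length correction was made.

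**Figure D1:**
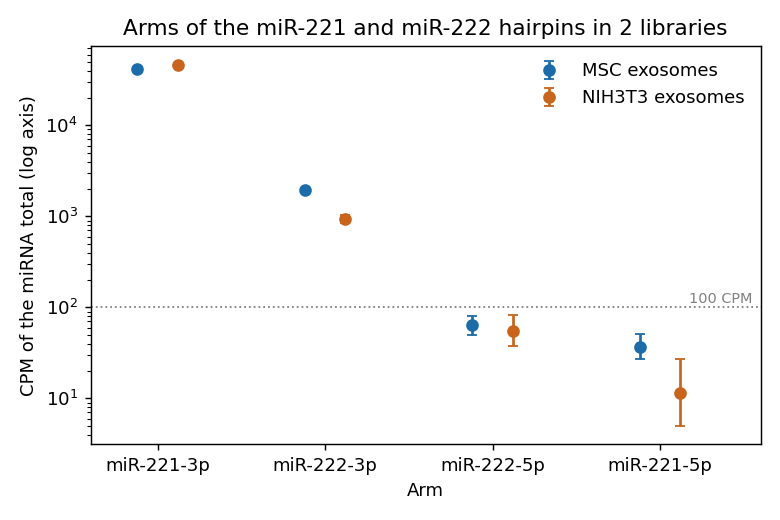
Level of each arm of the miR-221 and miR-222 hairpins in CPM of the miRNA total (log axis), 1 point for each library with its 95% Wilson interval for counting error. miR-221-3p stood far above the other arms in both libraries, and the dotted line marks the floor of 100 CPM, which both 5p arms missed.

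On the scale of the deposited normalized values neither 3p arm reached a 2-fold difference between the libraries, and they lay on opposite sides of equality. The log2 ratio of MSC over NIH3T3 exosomes on this scale was -0.38 (-0.41 to -0.36) for miR-221-3p, a ratio of 0.767. It was 0.83 (0.67 to 0.99) for miR-222-3p, a ratio of 1.77. For miR-221-5p it was 1.37 (0.09 to 3.14), from 5 counts in the NIH3T3 library. The 2 members with 100 CPM or more in at least 1 library were compared with all entries past that floor, and 0 of them were called at 2-fold or more. Among all 318 entries past the floor, 60.1% were called in either direction, 34.0% higher and 26.1% lower in MSC exosomes. That balance depended on the scale: 108 were higher and 83 lower here, 120 and 76 with scaling by the miRNA total, and 97 and 99 when centred on the median. miR-221-5p was under the floor and was not called.

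The choice of library scale touched the call of miR-222-3p. The median log2 ratio of the 318 entries was 0.28 on the deposited scale, so that miR-221-3p lay 0.66 below it (-0.66) and miR-222-3p 0.55 above it. With scaling by the miRNA total that median moved to 0.51, miR-221-3p to -0.15 and miR-222-3p to 1.06, just past 2-fold. By ratio, 120 of the 318 entries were lower than miR-221-3p and 115 were higher than miR-222-3p, and both lay between the quartiles of -1.13 and 1.62.

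**Figure D2:**
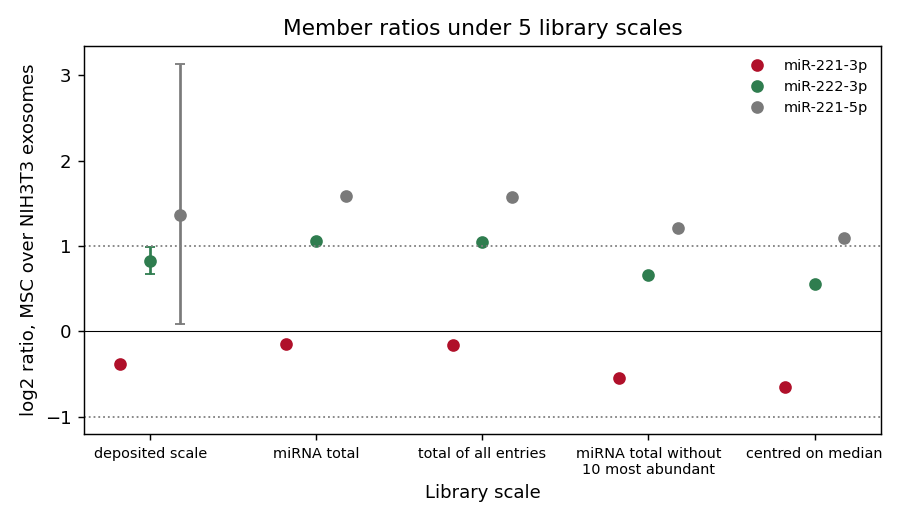
log2 ratio of MSC over NIH3T3 exosomes for the 3 members under 5 library scales, with 95% counting intervals on the deposited scale and dotted lines at 2-fold. miR-221-3p stayed below 0 and miR-222-3p above 0 on each scale shown, and miR-222-3p passed 2-fold on the scales by miRNA total (1.06) and by total of all entries (1.05).

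The balance between the seed partners does not depend on any library scale. In the MSC library there were 21.6 counts of miR-221-3p for each count of miR-222-3p (20.6 to 22.6), and in the NIH3T3 library 49.9 (45.2 to 55.2). Relative to miR-221-3p, miR-222-3p was therefore 2.31-fold more frequent in MSC exosomes (2.07 to 2.58), a log2 difference of 1.21 (1.05 to 1.37). Of the counts of both 3p arms, miR-222-3p made up 4.43% for MSC (4.25 to 4.62) and 1.97% for NIH3T3 (1.78 to 2.17).

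Other neighbouring miRNAs differed by similar amounts. Among 50 pairs of hairpins within 10 kb on 1 strand, each taken by its most counted arm among entries with 1 position and past the floor, 23 pairs lay closer together in log2 ratio than miR-221-3p and miR-222-3p, and 26 lay farther apart. The median absolute difference was 1.42, against 1.21 for miR-221-3p and miR-222-3p. Of these pairs 19 came from the large cluster region of chromosome 12. Without chromosome 12 the median over 31 pairs was 0.98, and 19 of them were closer. The pairs next in order were miR-127-3p with miR-431-5p, at 1.20, and miR-29a-3p with miR-29b-1-5p, at 1.38. Some pairs share a miRNA, as the 50 pairs held 75 miRNAs, so they are not independent. In 5 pairs a hairpin's main arm had several positions and another arm stood in, as for miR-29b-1-5p, miR-24-1-5p and miR-16-2-3p. Without those hairpins, a choice made after seeing the data, 21 of 45 pairs were closer and the median was 1.45.

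**Figure D3:**
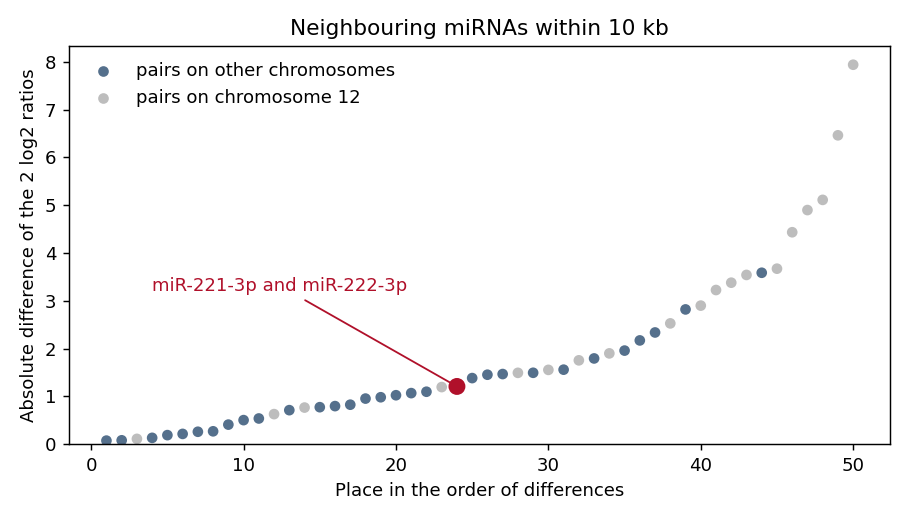
Absolute difference between the log2 ratios of neighbouring miRNAs, 1 point for each of 50 pairs, in ascending order. The miR-221-3p and miR-222-3p pair (red) took place 24 at 1.21, near the middle, and the widest differences were those of chromosome 12 pairs (grey).

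Summed over both 3p arms, the seed GCUACAU held nearly the same share of each library. Its sum was 45203 counts for MSC, 4.40% of miRNA counts (4.36 to 4.44), and 20448 counts for NIH3T3, 4.74% (4.68 to 4.81). On the deposited scale, which differs from these shares of the miRNA total, the log2 ratio of the sums was -0.35 (-0.37 to -0.32). Among 912 seeds it ranked 4 in both libraries. Ahead of it were the let-7 seed and that of miR-199a-3p in both, with the seed of miR-125 and miR-351 in MSC exosomes and that of miR-3473b in NIH3T3 exosomes. miR-221-3p carried nearly all of this sum, so the shift in miR-222-3p barely touched it. Sequences were found for 1054 miRNA entries, with 90.6% of MSC and 94.6% of NIH3T3 miRNA counts. The most abundant entry with none, miR-143-3p, had 38634 and 3690 counts, fewer than the 3p arms of the pair.

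**Figure D4:**
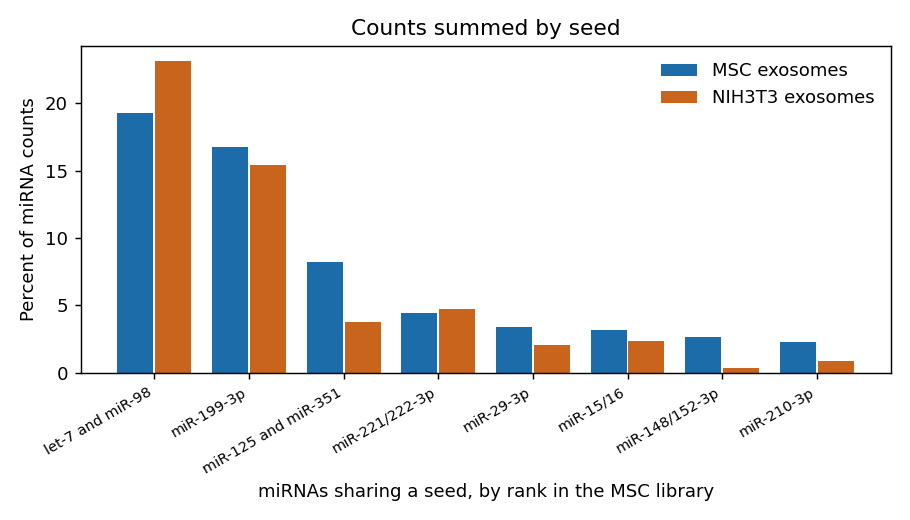
Percent of miRNA counts held by miRNAs that share a seed, for the 8 most abundant seeds of the MSC library, in MSC (blue) and NIH3T3 (orange) exosomes. The miR-221 and miR-222 seed was at 4.40% and 4.74%, while that of miR-148 and miR-152 was at 2.63% and 0.326%.

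The hairpins differed widely in how much of the 5p arm was present. In the MSC library miR-221 had 1137 counts of the 3p arm for each count of the 5p arm (828 to 1607), and in the NIH3T3 library 4009 (1718 to 12349). For miR-222 the 3p to 5p ratios were 30.8 (24.1 to 40.1) and 16.8 (11.1 to 26.5). The 5p arm was 0.0879% of both arms of miR-221 for MSC (0.0640 to 0.121) and 0.0249% for NIH3T3 (0.0107 to 0.0584). For miR-222 it was 3.14% (2.47 to 3.99) and 5.63% (3.81 to 8.25).

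Between the libraries the arm balance of the hairpins moved in opposite directions. The log2 3p to 5p ratio of miR-221 was lower in MSC than in NIH3T3 exosomes by -1.82 (-3.52 to -0.47), and that of miR-222 was higher by 0.88 (0.12 to 1.59). Among the 5p arms the order of the genes was the reverse of that among the 3p arms. miR-222-5p had 1.71 counts for each count of miR-221-5p in the MSC library (1.13 to 2.62) and 4.80 in the NIH3T3 library (1.80 to 16.1), and the interval of the change between libraries included 0 (log2 -3.34 to 0.10).

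Over 140 hairpins with both arms counted in both libraries and the main arm past the floor, miR-221 had the highest ratio of main to minor arm in each library. Its log2 values of 10.15 and 11.97 stood against medians of 3.42 for MSC and 3.58 for NIH3T3. Each minor arm had at least 1 count, so no ratio could exceed the count of its main arm. Hairpins with fewer main arm counts than the miR-221 ratio could therefore not have passed it, and the order partly follows abundance. Next in order came miR-122 in both libraries, with 9759 counts of its 5p arm and 17 of its 3p arm in MSC exosomes and 3486 and 1 in NIH3T3 exosomes. The NIH3T3 order of these hairpins rests on minor arms of 5 counts and 1 count, and the interval of miR-221 there covered the miR-122 ratio. miR-222 took places 44 and 59. The median absolute difference of log2 arm ratios between libraries was 1.14, against 1.82 for miR-221, which was place 47 of 140, and 0.88 for miR-222, place 89. Another 96 hairpins with an arm past the floor had no second arm that could be compared, and 6 of them for MSC and 1 for NIH3T3 had a main arm count above the miR-221 ratio, so that the order was not determined for those. Entries with several positions were left out of this comparison.

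**Figure D5:**
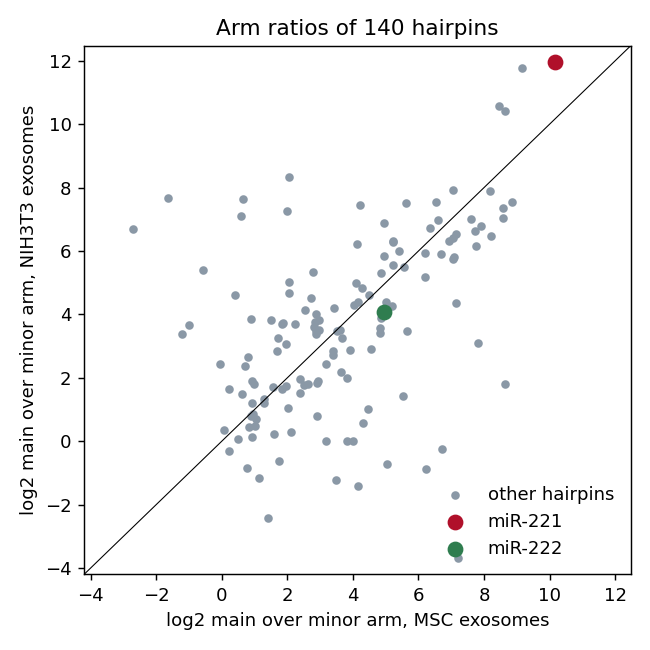
log2 ratio of the main over the minor arm for 140 hairpins, MSC exosomes on the horizontal and NIH3T3 exosomes on the vertical axis, with the line of equality. miR-221 (red) is highest on both axes, at 10.15 and 11.97, while miR-222 (green) is at 4.95 and 4.07.

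On the X chromosome miR-221-3p led both libraries. It held 52.8% of the counts of the 94 X-linked miRNA entries with 1 position in MSC exosomes and 62.2% in NIH3T3 exosomes. miR-222-3p ranked 6 on the chromosome in both, with 2.45% and 1.25%. Second in both came miR-351-5p, from a cluster elsewhere on the chromosome, whose log2 ratio of -0.37 was close to that of miR-221-3p. Of 27 X-linked entries past the floor, 9 were higher and 3 lower in MSC exosomes and 15 were within 2-fold, with a median log2 ratio of 0.47. Over all 318 entries 34.0% were higher, 26.1% were lower and the median was 0.28. The nearest entries on either side, miR-1198-5p and miR-1198-3p at 11.3 Mb and miR-5617-3p and miR-5617-5p at 1.72 Mb, had at most 135 counts.

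The miRNAs nearest to miR-221-3p in level over both libraries were the differentiation-linked let-7c-5p, let-7b-5p and let-7i-5p, at distances of 0.20, 0.52 and 1.34 on the log2 scale. let-7c-5p had 37756 and 19407 counts. Nearest to miR-222-3p were miR-425-5p, miR-214-5p and miR-19b-3p, at 0.37, 0.60 and 0.62, and miR-425-5p had 1832 and 316 counts. This likeness rests on 2 libraries and on level alone.

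Among 13 other miRNAs linked to CDK inhibitors, the group in which the pair is best known, 10 were in the table and 7 passed the floor. Of these 0 were higher and 3 lower in MSC exosomes, and 4 were within 2-fold, with a median log2 ratio of -0.20. Over all 318 entries 34.0% were higher, 26.1% were lower and the median was 0.28. The seed relatives of the miR-17 family that repress Cdkn1a split: miR-17-5p had 67 and 88 counts (log2 ratio -1.87, -2.36 to -1.41) and miR-20a-5p 227 and 166 (-1.03, -1.33 to -0.74), while miR-93-5p was at 0.60. miR-25-3p, reported to repress Cdkn1c in human cells, had 10066 and 2038 counts, and its log2 ratio of 0.81 (0.75 to 0.88) was near that of miR-222-3p. miR-24-3p was at 0.27 with 6565 and 1942 counts. miR-181a-5p, reported to repress Cdkn1b in human cells, had 125 and 167 counts (-1.90, -2.25 to -1.56).

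Of 10 miRNAs of vascular and smooth muscle cells, where the pair has been much studied, 7 passed the floor, with 4 higher, 2 lower and 1 within 2-fold and a median log2 ratio of 1.13, against the same 34.0% higher, 26.1% lower and median of 0.28 over all 318. The smooth muscle miRNAs miR-143-3p, at 1.90, and miR-145a-5p, with 18192 and 2524 counts and 1.36 (1.30 to 1.42), were higher in MSC exosomes, as were the vessel-linked miR-130a-3p at 1.84 and the hypoxia-induced miR-210-3p at 1.13. miR-21a-5p, a growth-linked miRNA of stromal cells, was at -0.27. The endothelial miR-126a-3p, with 337 and 309 counts, was lower at -1.36 (-1.59 to -1.14), and the inflammation-induced miR-155-5p at -4.03. In MSC exosomes miR-143-3p lay next below miR-221-3p by rank, at 6, whereas in NIH3T3 exosomes it ranked 17.

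Blood, vessel and serum miRNAs were present beside the pair. Of 4 haematopoietic markers 1 passed the floor, none was at 0, and they summed to 249 CPM in MSC and 401 CPM in NIH3T3 exosomes. The higher NIH3T3 sum came from miR-142a-3p, the marker past the floor, at 118 and 329 CPM. Under the floor, miR-223-3p had 81.7 and 39.4 CPM, miR-150-5p 29.2 and 13.9, and miR-142a-5p 20.4 and 18.6. The 2 endothelial markers summed to 370 and 768 CPM. The 5 miRNAs that are common in serum summed to 37595 CPM in MSC and 37053 CPM in NIH3T3 exosomes, led by miR-16-5p, which cells of many kinds also make. Among them the liver miRNA miR-122-5p had 9491 and 8088 CPM, while the red cell miRNAs miR-451a and miR-486a-5p were under the floor in both. The only 2-fold call among the 5 fell on miR-423-5p, at 2283 CPM for MSC against 7814 CPM for NIH3T3 exosomes. Its log2 ratio on the deposited scale was -2.01 (-2.09 to -1.93). It was lower for MSC in CPM too, so the near-equal sums did not hold for each serum miRNA. The medium held serum, and its part in the level of miR-221-3p was not tested.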

How the data were processed

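Small RNA of exosomes was measured in 2 libraries, 1 of MSCs and 1 of NIH 3T3 cells. Per the labels' protocols, exosomal RNA (exoRNeasy kit) was made into QIAseq miRNA libraries, though a microarray is also named there. Raw counts were deposited by the authors as whole numbers, and the normalized values they deposited equalled log2 of the counts after multiplying each library by a constant (0.655 for MSC, 1.84 for NIH3T3). Per the submitters' processing notes, mm10 was the genome build. The aligner, the counter and any use of molecular identifiers were not given in the sources used here, and copies made by PCR would leave the intervals too narrow. Every entry had 10 or more counts in at least 1 library.

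Ratios were taken between the rescaled counts with a constant added, 0.734, which equals 1 CPM of the average miRNA total. Their intervals, and those of count ratios inside a library, are exact conditional (Clopper-Pearson) intervals without that constant. Shares have Wilson intervals, and changes of such inside ratios between the libraries have exact conditional intervals of the odds ratio, all at 95%. The floor was 100 CPM in at least 1 library, 103 counts for MSC and 43.1 for NIH3T3 exosomes, and a call needed a 2-fold difference. The named miRNAs were the members, the 3 entries nearest in level to each 3p arm, neighbours in rank and position, and the leading or 2-fold different members of the lists. Ratio and interval code was tested on simulated data. Members and lists were chosen with earlier results of these data known, and the sums by seed, miR-222-5p and the other hairpins' arm ratios were added after the data were seen. Alternatives were other library scales, added constants, floors, a 4-fold difference and other pair distances. Python 3.11.15, scipy 1.17.1 and pandas 2.3.3 were used. Of the target mRNAs chosen for the seed search, 1 is not reported here.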

Additional observations from a re-analysis of the deposited data

How the results depend on the processing

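The log2 ratio of miR-221-3p was -0.15 when scaled by the miRNA total, -0.16 by the total of all entries, -0.55 without the 10 most abundant miRNAs of either library and -0.66 when centred on the median ratio. Under the same scales that of miR-222-3p was 1.06, 1.05, 0.66 and 0.55, so it passed 2-fold when scaled by the miRNA total or by all entries. miR-221-5p stayed inside its counting interval under its 6 alternatives, and fell just under 2-fold (0.96) with 10 CPM added. The difference between the 3p arms and the miR-221 arm balance moved by less than their intervals under the constants tried. Entries 2-fold or more apart numbered 591 of 1181 (50.0%) at a floor of 10 CPM (282 higher, 309 lower). They numbered 59 of 105 (56.2%) at 1000 CPM (34 and 25) and 598 of 1214 (49.3%) with no floor (289 and 309). The number of entries that could be called changed with the floor, and the share called was 60.1% at the main floor. More entries were lower than higher at 10 CPM and with no floor, unlike at the main floor (108 higher, 83 lower). At the main floor 115 of the 318 entries (36.2%) were 4-fold apart. Closer pairs numbered 12 of 28 within 1 kb, 5 of 15 at a floor of 1000 CPM and 56 of 127 at 10 CPM. No paired analysis was possible because each group had 1 library. The 5 counts of miR-221-5p in NIH3T3 exosomes limit what can be said of it.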
